A study of Mus musculus with 18 samples.

Results

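CpG-poor promoters are the stretches around transcript starts in which CpG dinucleotides are sparse. They were taken here as CpGs on the autosomes, within 500 bp of a protein-coding start of the GENCODE M21 annotation, with 2 to 10 listed CpGs, counting itself, in the 250 bp to each side. A further condition was at least 5 reads in each of the 18 libraries. This rule gave 10401 CpGs, which is 0.730% of the 1424423 CpGs that met the same coverage in all 18 libraries. They lie in 4639 promoters of 4028 genes. Before the coverage condition the rule selects 150142 CpGs in 22987 promoters, so the measured set holds 6.93% of those CpGs and 20.2% of those promoters. A promoter is a set of starts of 1 gene whose windows overlap. The 1530 promoters of 1453 genes with at least 3 measured CpGs, 6043 CpGs in all, could be tested singly and are called the tested promoters.

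The libraries come from mouse embryonic stem cells in which the Dnmt1 gene is knocked out, profiled by enhanced reduced representation bisulfite sequencing (eRRBS), which cuts DNA with MspI, BfaI and MseI, treats it with bisulfite so that unmethylated cytosines read as thymine, and sequences it. All 6 groups carry the knockout and stably express DNMT1 from the pPyCAGIP vector under puromycin selection. The protein is wild type (WT) in 1 group and carries tryptophan-to-alanine substitutions in the others, named W465A, W464A/W465A, W796A, W465A/W796A and, as the triple mutant, W464A/W465A/W796A. Each group has 3 biological replicates. Several stable lines were made per group, and the labels do not say whether the replicates are separate lines, so p-values measure the spread between these libraries. The empty-vector control of the knockout was not used here, so the level without DNMT1 is not given. The series addresses how these residues bear on the methylation that DNMT1 maintains.

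DNMT1 copies CpG methylation onto the new strand after DNA replication, mainly at CpGs whose old strand is methylated. The tryptophans replaced in W464A/W465A lie in the domain that targets DNMT1 to replication foci, and the one replaced in W796A lies in its first bromo-adjacent homology domain; both kinds of domain bind histone tails. Promoters rich in CpGs (CpG islands) are mostly free of methylation whether or not the gene is used. CpG-poor promoters more often belong to genes used in few tissues, such as those for sensory receptors, keratins, secreted liver proteins or immune receptors, and are often methylated in cells that do not use the gene.

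The windows of 5 named promoters, each 250 bases before a start, show what such promoters look like. They have the most measured CpGs among the named promoters whose window holds no annotated exon. Each is printed 5′ to 3′ along the gene from GRCm38, in lower case. Every CpG that lies wholly inside the window is in capitals. The base after the last one printed is the first of the transcript.
Prr9: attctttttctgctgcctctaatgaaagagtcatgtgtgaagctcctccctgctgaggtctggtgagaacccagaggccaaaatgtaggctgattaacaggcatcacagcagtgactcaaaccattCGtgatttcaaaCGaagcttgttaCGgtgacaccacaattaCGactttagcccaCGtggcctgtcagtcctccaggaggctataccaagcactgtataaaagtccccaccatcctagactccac
4930430A15Rik: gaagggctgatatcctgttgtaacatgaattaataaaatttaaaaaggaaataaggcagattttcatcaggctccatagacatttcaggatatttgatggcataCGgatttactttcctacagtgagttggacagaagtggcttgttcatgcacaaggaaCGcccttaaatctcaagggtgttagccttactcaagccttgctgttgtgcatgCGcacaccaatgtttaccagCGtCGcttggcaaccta
Defb45: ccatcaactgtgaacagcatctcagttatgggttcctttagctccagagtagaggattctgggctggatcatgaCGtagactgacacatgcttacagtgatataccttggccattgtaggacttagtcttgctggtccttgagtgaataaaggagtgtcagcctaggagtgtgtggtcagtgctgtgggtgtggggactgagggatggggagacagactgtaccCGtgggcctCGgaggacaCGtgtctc
Eno1: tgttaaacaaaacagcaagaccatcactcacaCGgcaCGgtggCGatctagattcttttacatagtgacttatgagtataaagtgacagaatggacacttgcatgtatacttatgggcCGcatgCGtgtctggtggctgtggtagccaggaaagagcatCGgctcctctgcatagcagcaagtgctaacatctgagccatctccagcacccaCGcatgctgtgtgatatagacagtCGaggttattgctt
Mylpf: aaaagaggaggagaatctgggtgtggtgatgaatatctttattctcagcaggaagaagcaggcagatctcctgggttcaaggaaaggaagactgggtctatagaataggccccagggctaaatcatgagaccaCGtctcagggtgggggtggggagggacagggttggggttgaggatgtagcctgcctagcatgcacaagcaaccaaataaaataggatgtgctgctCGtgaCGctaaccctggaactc
The Prr9 window, chr3:92123948-92124197 on the minus strand, holds 5 CpGs and all 5 were measured. Prr9 encodes a proline-rich protein of the skin and hair gene cluster. Its WT levels from the farthest to the nearest CpG (positions -123 to -69, counted from the start) were 74.5% ± 13.2, 76.2% ± 31.9, 91.4% ± 10.3, 77.4% ± 17.1 and 62.1% ± 19.7 (SD, n = 3). In W464A/W465A the same 5 CpGs held 24.7% ± 15.5, 6.06% ± 10.5, 33.8% ± 15.9, 17.7% ± 7.51 and 14.4% ± 12.9. The fall thus ran over the whole window, and the single-CpG values, some of them on as few as 5 reads in a library, varied widely.

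The window of 4930430A15Rik, an uncharacterised gene, is chr2:111229603-111229852 on the minus strand and holds 5 CpGs, 3 of them measured at -36, -16 and -13. They held 100% ± 0, 94.4% ± 9.62 and 80% ± 26.5 in WT and 26.2% ± 25.1, 8.33% ± 14.4 and 8.33% ± 14.4 in W465A. Defb45, a beta-defensin, has 4 CpGs in chr2:152596483-152596732 on the minus strand, and the 3 measured ones lie at -25, -16 and -7. Their WT levels were 82.2% ± 1.92, 88.1% ± 16 and 70% ± 12. In the triple mutant W464A/W465A/W796A they were 17.1% ± 14.8, 13.8% ± 9.97 and 10% ± 5.16. Both promoters are therefore methylated up to the start in WT and mostly unmethylated there in the mutant named.

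Eno1 and Mylpf show windows around a later start of a gene whose first annotated start lies elsewhere. The Eno1 window, chr4:150243236-150243485 on the plus strand, has 8 CpGs, of which the first 3 were measured. The CpGs at -218 and -213 held 74.8% ± 6.36 and 62.1% ± 25.4 in WT. The other, at -207, had no methylated read in any of the 18 libraries. The Mylpf window, chr7:127212429-127212678 on the plus strand, has 3 CpGs, and those at -22 and -17 held 30.6% ± 28.3 and 32.5% ± 32 in WT. A further measured CpG begins at the last printed base and ends in the transcript, so it is not in capitals.

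Sequence features of the 250 bases before the most upstream start were counted on both strands in the 1530 tested promoters and in all 31025 autosomal protein-coding promoters. The TATA motif TATAAA was found in 10.8% of tested promoters against 13% of all promoters. The E-box CACGTG was in 4.77% against 5.77%. The GC-box core GGGCGG was in 16.1% against 31.6%, and CCGG, the site cut by MspI, in 36% against 45.2%. The E-box, the GC-box core and the MspI site each hold a CpG, so their lower shares partly restate the choice by CpG density. By the first base of the match, the Prr9 window holds TATAAA at -30 and CACGTG at -72, the Defb45 window CACGTG at -10, and the Eno1 window TATAAA at -174. A match is a description of the letters, not of a bound site.

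The name "CpG-poor promoter" was checked against the windows themselves. In 607 tested promoters every listed CpG within 500 bp of the start met the density limit, and these are called wholly CpG-poor. The windows of the other 923 also hold CpGs with over 10 listed CpGs within 250 bp, so their measured CpGs are the sparse edge of a denser stretch. A second check asked which starts these are. The first annotated protein-coding start of the gene lies in 737 tested promoters (48.2%), and the remaining 793 (51.8%) surround a later start only. In wholly CpG-poor windows TATAAA was present in 14.7% and GGGCGG in 9.06%, against 8.23% and 20.8% where denser CpGs were also present. Most tested promoters are thus not free-standing CpG-poor promoters at a gene's first start. Mean levels are given for both classes of window side by side. Promoters named singly come from both classes, which is not stated for each.

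Libraries held 59776439 to 138978763 CpG calls, and the median measured CpG of these promoters had 11 to 25 reads per library. The shallowest library of a tested promoter had a median of 27 reads and never fewer than 15. Several libraries stand apart. WT replicate 1 had the lowest level of the 3 WT libraries at 1199 of the 1530 tested promoters, and W796A replicate 1 had the lowest of its group at 1365. W465A replicate 1 was the highest of its group at 1096. WT replicate 2 was the deepest library, with a median of 25 reads at measured CpGs against 11 in each other WT library. It had the highest level of its group at 829 promoters. Where the libraries of a group are pooled, their reads are summed, so WT replicate 2 generally weighs most in a pooled WT level. Differences in mean level over all measured CpGs, and most counts of called promoters, are also given without single libraries. Levels of classes, lists and single promoters are given with all libraries only.

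Averaged over the 10401 CpGs, each counted once, the WT libraries were methylated at 52.2%, 69% and 65.1%, a mean of 62.1% ± 8.80 (SD, n = 3). The level was far lower in 3 of the 5 mutants. W465A libraries held 31.3%, 21.2% and 21.6%, a mean of 24.7% ± 5.69, and W464A/W465A libraries held 16.1%, 20.8% and 16.1%, a mean of 17.7% ± 2.71. The triple mutant W464A/W465A/W796A held 16.5%, 20% and 15.6%, a mean of 17.4% ± 2.32. W465A/W796A lay between, at 48.1%, 41.6% and 41.5%, a mean of 43.8% ± 3.77. W796A alone held 50%, 73.6% and 66.8%, a mean of 63.5% ± 12.2. W796A libraries overlap those of WT, while all libraries of the other 4 mutants lie below all 3 WT libraries.

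Against WT the mean level differed by 1.37 points in W796A, by -37.4 points in W465A, by -18.3 points in W465A/W796A, by -44.4 points in W464A/W465A and by -44.7 points in the triple mutant. The mutants kept 102%, 39.8%, 70.5%, 28.4% and 28% of the WT mean in that order. W465A/W796A lay above W465A, 43.8% against 24.7%, with no overlap between their libraries. W464A/W465A differed from W465A by -7.06 points, or by -3.77 without W465A replicate 1, and the triple mutant from W465A/W796A by -26.4 points. The triple mutant and W464A/W465A differed by -0.295 points and overlap, and leaving out 1 library gave -1.60 to 1.27. These contrasts share libraries, so they are not independent of each other. No p is given for these means, and 3 libraries against 3 could not give an exact two-sided permutation p below 0.1.

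Leaving out WT replicate 1 moved the difference of W465A from WT to -42.3 points and leaving out WT replicate 2 moved it to -33.9. For W465A/W796A the same 2 omissions gave -23.3 and -14.9 points. The difference of W796A from WT was 8.12 points without W796A replicate 1 and -3.70 without W796A replicate 2, so its sign rests on single libraries.

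**Figure D1:**
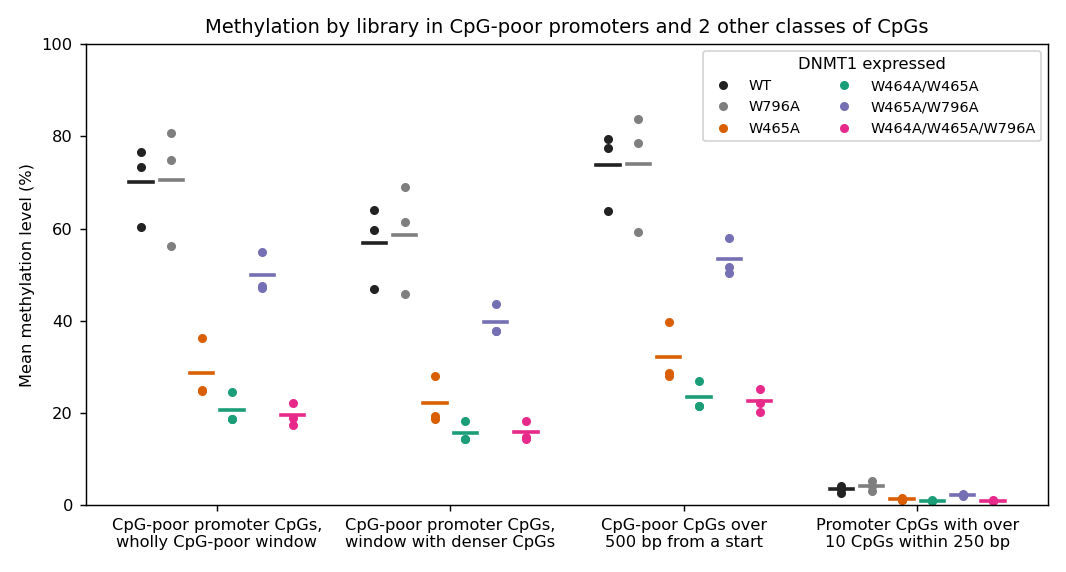
Mean methylation level (%) of 4 classes of CpGs in each library (points) with group means (bars), by the DNMT1 expressed. In wholly CpG-poor promoter windows the WT mean is 70% and the W464A/W465A and W464A/W465A/W796A means are 20.7% and 19.6%; promoter CpGs in dense stretches reach at most 5.28%, in a W796A library.

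Wholly CpG-poor windows were the more methylated class. Their 4160 CpGs held 60.3%, 76.5% and 73.4% in WT, a mean of 70% ± 8.62. The 6241 CpGs of windows that also hold denser CpGs held 46.8%, 64% and 59.6%, a mean of 56.8% ± 8.93. In each WT library the first class was the higher one. The mutants showed the same order, with 28.7% ± 6.47 against 22.1% ± 5.16 in W465A, 49.9% ± 4.31 against 39.7% ± 3.42 in W465A/W796A, 20.7% ± 3.42 against 15.6% ± 2.24 in W464A/W465A and 19.6% ± 2.49 against 15.9% ± 2.22 in the triple mutant. The share of the WT mean that was kept was 41% and 38.8% in W465A and 29.6% and 27.5% in W464A/W465A.

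CpGs of the same low density that lie over 500 bp from any protein-coding start (584403 CpGs) held 63.9%, 79.5% and 77.5% in WT, a mean of 73.7% ± 8.48. Weighting them to the densities found in wholly CpG-poor promoter windows gave 73.8% ± 8.47. The promoter class was thus lower by a few points in each WT library. It held 60.3% against a weighted 64% in replicate 1, 76.5% against 79.6% in replicate 2 and 73.4% against 77.6% in replicate 3. Promoter CpGs with over 10 CpGs within 250 bp (356595 CpGs) held 3.48% ± 0.833 in WT, 1.35% ± 0.289 in W465A and 2.30% ± 0.223 in W465A/W796A. The CpG-poor promoter CpGs were thus far closer to CpG-poor sites elsewhere than to CpG-dense promoters. These are descriptions of classes, without a test.

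Within wholly CpG-poor windows, levels were also compared by the number of neighbouring CpGs. WT levels were 68.8% ± 10.2 with 2 to 3 CpGs within 250 bp, 69.6% ± 8.34 with 4 to 5, 70.9% ± 8.78 with 6 to 7 and 69.9% ± 8.32 with 8 to 10. Over all 10401 CpGs the level fell off in the densest class, from 67.4% ± 9.88 with 2 to 3 CpGs to 58.8% ± 8.70 with 8 to 10, and only 1377 of these 5728 densest CpGs lie in wholly CpG-poor windows. CpGs in repeat-masked sequence (696) held 62.5% ± 9.14 in WT and the other 9705 held 62.1% ± 8.78.

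In wholly CpG-poor windows the WT level was lowest in the bin just before the start, at 65.3% ± 9.15 over 623 CpGs, with 8 equal bins from 500 bp before to 500 bp after it. It was 72.1% ± 8.72 in the bin farthest upstream and 70.2% ± 8.04 in the bin just after the start. Each WT library had its lowest level in the bin just before the start. W465A followed the same course, with 25.3% ± 6.38 just before the start, 30.6% ± 6.54 farthest upstream and 29% ± 6.12 just after it. The share of WT kept in W465A was 38.7% just before the start and 42.4% farthest upstream.

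**Figure D2:**
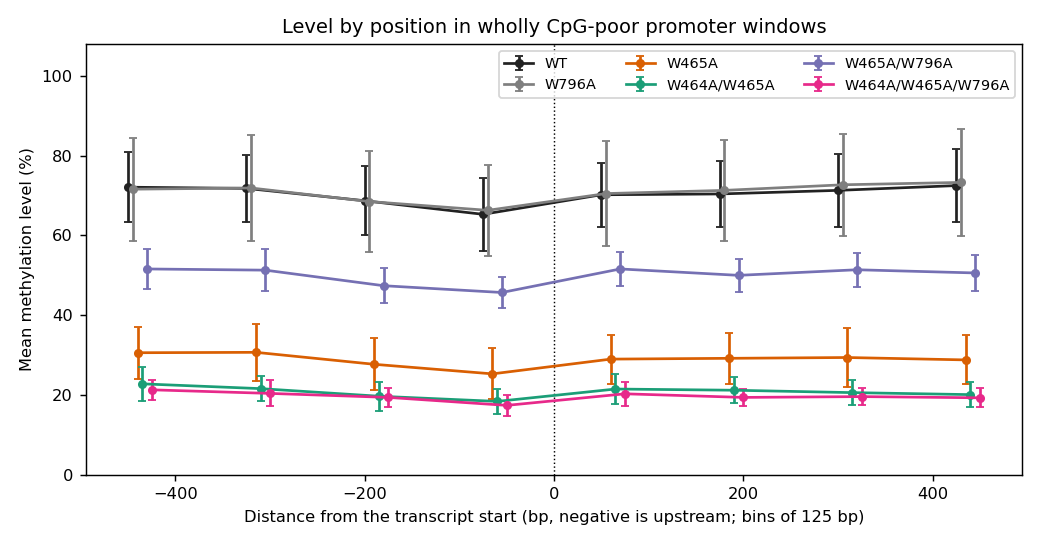
Mean methylation level (%, group mean with SD over 3 libraries) of CpGs in wholly CpG-poor promoter windows by distance from the transcript start, in 8 equal bins across 500 bp to each side. WT falls from 72.1% in the most upstream bin to 65.3% just before the start and is 70.2% just after it; the mutants keep their order in each bin.

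In 401 tested promoters the window also held at least 3 measured CpGs of higher density, which allows a comparison inside 1 window. The CpG-poor CpGs held 50.8% ± 9.24 in WT and the denser CpGs of the same windows 31.5% ± 5.09. The CpG-poor ones were higher in 318 promoters and lower in 83, with a median difference of 14.8 points. The levels in W465A were 18.1% ± 4.49 and 12% ± 3.04, in W465A/W796A 34.7% ± 2.79 and 22.7% ± 2.19, in W464A/W465A 12.8% ± 2.39 and 8.69% ± 1.02, and in the triple mutant 13.3% ± 2.23 and 9.06% ± 1.46. In all 18 libraries the CpG-poor CpGs were the higher of the pair on average.

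Tested promoters around a gene's first start were less methylated than those around a later start only. In WT the first kind held 57.4% ± 9.3 and the second 69.4% ± 8.2. Among wholly CpG-poor windows the values were 66.5% ± 9.62 for 275 promoters and 72.6% ± 7.49 for 332. Levels under 20% in WT (libraries pooled) were found at 79 of the 737 first-start promoters (10.7%) and at 30 of the 793 others (3.78%). In W464A/W465A the 2 kinds held 15.4% ± 2.67 and 20.9% ± 2.89.

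WT levels of the tested promoters ranged from 0% to 96.3% with a median of 74.6%. They were under 20% in 109 promoters (7.12%), between 20% and 80% in 880 (57.5%) and over 80% in 541 (35.4%). In W796A the median was 74.4% and 454 promoters were over 80%. No promoter was over 80% in W465A, W464A/W465A or the triple mutant, where the medians were 26.6%, 17.9% and 17.2%. W465A/W796A had a median of 51% and 17 promoters over 80%. The number under 20% was 109 in WT, 248 in W465A/W796A, 580 in W465A, 842 in W464A/W465A and 886 in the triple mutant.

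In W465A, W464A/W465A and the triple mutant no class of promoters thus kept its WT level. Promoters over 80% in WT held 62.8% ± 4.54 in W465A/W796A, 38.1% ± 7.41 in W465A and 27.4% ± 3.47 in W464A/W465A. Those between 20% and 80% in WT held 39.6% ± 3.64, 20.5% ± 5.54 and 14.6% ± 2.68. Relative to WT, W465A kept 45.3% of the level in the first class, 35.3% in the second and 23.8% in promoters under 20%. The classes were cut on WT values, which themselves carry error, so this order is a description only.

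**Figure D3:**
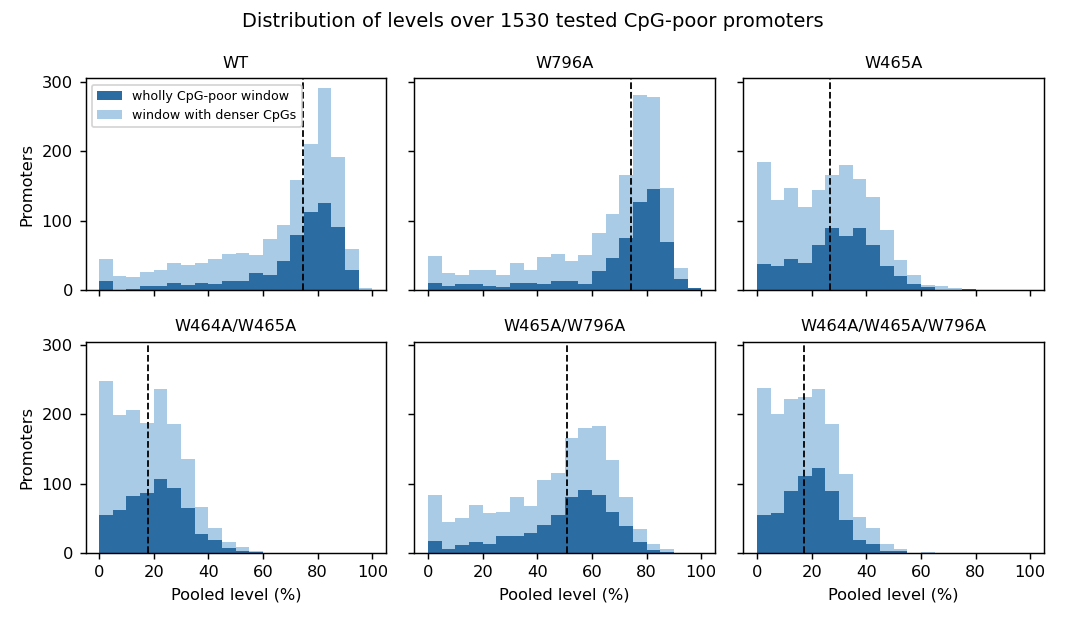
Number of tested promoters by methylation level (%, libraries of a group pooled, bins of 5 points) in each group, stacked by wholly CpG-poor windows and windows with denser CpGs; the dashed line is the median. The WT median of 74.6% drops to 51% in W465A/W796A, 26.6% in W465A, 17.9% in W464A/W465A and 17.2% in the triple mutant.

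Each tested promoter was then compared between groups with a quasi-binomial model of its methylated and unmethylated reads, fitted together with the other promoter CpGs and 1 kb tiles of the table (154974 features, which is the background). A promoter was called when the Benjamini-Hochberg adjusted p of the model's F test was under 0.05 and the pooled levels differed by at least 10 points. W465A against WT gave 1423 lower promoters of 1530 (93%), where 83.2% of all features were called lower. W464A/W465A gave 1438 (94%) against a background of 84.9%, and W464A/W465A/W796A gave 1448 (94.6%) against 85.1%. No tested promoter was called higher in these contrasts, where 0.000645%, 0.000645% and 0% of all features were. The median difference was -42.1 points in W465A, -51.4 in W464A/W465A and -52.3 in the triple mutant, beside -41.1, -50.3 and -51.2 over all features. All of these contrasts use the same WT libraries.

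Loss in W465A/W796A was smaller and less firmly called. It gave 450 lower promoters (29.4%) where 24.6% of all features were called, and 0 higher (background 0.00129%). The median difference was -20.1 points beside -18.2 over all features, and 1492 of 1530 promoters had a difference below 0. The count depended on the fit and on single libraries. It was 71 with limma, 103 with edgeR, 232 with the replicate block and 250 without squeezing. It was 791 without WT replicate 1, 0 without WT replicate 2 and 143 without WT replicate 3. Without W465A/W796A replicates 1, 2 and 3 it was 285, 73 and 14.

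In W796A against WT no tested promoter was called in either direction (background 0% lower and 0.00452% higher). Unadjusted p-values under 0.05 were found at 73 of 1530 promoters and at 8224 of all 154974 features. Limma and edgeR also called 0. Given the spread between the libraries of these groups, a count of 0 does not show that their levels are alike. The median difference was -0.712 points beside -0.506 over all features. Leaving out WT replicate 3 gave 3 calls and leaving out W796A replicate 1 gave 1. With the replicate number as a block within these 2 groups the count was 0.

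W465A/W796A against W465A gave 410 higher promoters (26.8%) where 27% of all features were called higher, and 0 lower (background 0.00323%). The share of CpG-poor promoters was thus at the background. The median difference was 19.8 points beside 20.3, and 1473 promoters had a difference above 0. Leaving out W465A replicate 3 or W465A/W796A replicate 1 brought it to 0, W465A replicate 2 to 58 and W465A/W796A replicate 3 to 232. Fitting only the 2 groups compared gave 669, limma 241, edgeR 287 and no squeezing 220.

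The triple mutant lay below W465A/W796A at 1106 promoters (72.3%, background 68.8%), with a median of -29.8 points beside -30.0, and 0 were higher (background 0%). Without W465A/W796A replicate 1 the count was 666. The triple mutant against W464A/W465A gave 0 calls in either direction (background 0% each) and 0 calls by limma and edgeR. An unadjusted p under 0.05 was found there at 25 of 1530 promoters and at 1654 of all 154974 features. W464A/W465A against W465A gave 0 calls (background 0% each), a median of -6.46 points and 0 calls by limma and edgeR. In this contrast 129 of 1530 promoters and 12561 of all 154974 features had an unadjusted p under 0.05.

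**Figure D4:**
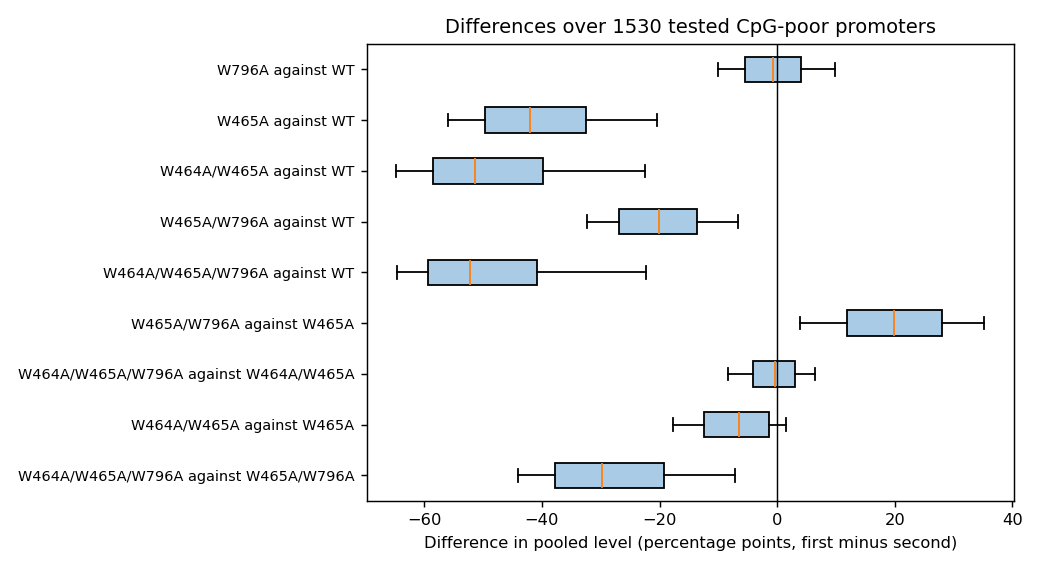
Difference in pooled level (percentage points, first group minus second) over the 1530 tested promoters for 9 contrasts; boxes span the quartiles with the median line, whiskers the 10th to 90th percentile. The medians for W796A against WT and for the triple mutant against W464A/W465A are -0.712 and -0.299 points, and that for W464A/W465A/W796A against WT is -52.3.

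Few of these counts stand far from the background. Counted by libraries instead, all 3 W465A libraries lay below all 3 WT libraries at 1291 promoters (84.4%) and at 79.2% of all features, and none lay above, where 0.133% of all features did. For wholly CpG-poor windows the count was 533 of 607 (87.8%). For W465A/W796A it was 682 of 1530 (44.6%) beside 41.6% of features, for W464A/W465A 1374 (89.8%) beside 85.4%, and for the triple mutant 1390 (90.8%) beside 85.2%. The background is made up otherwise, with 14503 features of other promoter CpGs and 138941 tiles. What sets the shares apart was not tested.

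The largest falls in W465A were at 4930430A15Rik, Ric8a, Ppm1b, Dcun1d1 and Ggta1. The WT libraries of 4930430A15Rik held 100%, 96.7% and 77.8%, and those of W465A 33.3%, 9.52% and 0%, a difference in pooled level of -81.2 points (adjusted p = 0.000251, quasi-binomial model with Benjamini-Hochberg adjustment). Its groups are far apart, although it rests on as few as 15 reads in a library. Ric8a, a chaperone of G protein alpha subunits measured at a later start, held 75%, 89.5% and 83% in WT and 17%, 12.5% and 5.95% in W465A (-72.6 points, adjusted p = 3.2e-05). Ppm1b, a protein phosphatase also measured at a later start, held 87.5%, 89.7% and 90.9% in WT and 28.9%, 10.3% and 14% in W465A (-71.7 points, adjusted p = 2.55e-05). Dcun1d1, a factor of cullin neddylation, and Ggta1, which makes the alpha-galactose epitope, both measured at later starts only, fell by 71.5 and 71.4 points. The Ggta1 window also holds denser CpGs.

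In W464A/W465A the largest falls were at 2 receptor genes, Dnmt3l, Sele and Fam193b. The window of a later start of Olfr667, an olfactory receptor, held 90.5%, 92.6% and 96.3% in WT and 3.70%, 14.8% and 15.4% in W464A/W465A (-82.3 points, adjusted p = 8.46e-06). Taar5, a trace amine receptor of the olfactory epithelium, held 82.4%, 89.4% and 100% in WT and 5.68%, 11.8% and 10.7% in W464A/W465A (-80.4 points, adjusted p = 1.64e-06). W465A held 31.2%, 35.7% and 28.3% at Taar5 and the triple mutant 26.2%, 31.9% and 23.7%, both above W464A/W465A in each library, but neither difference was called. Sele (E-selectin of activated endothelium) and a later start of Fam193b fell by 77.8 and 77.4 points.

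Dnmt3l encodes a cofactor of the de novo methyltransferases that is itself used in embryonic stem cells. Its tested CpGs held 72.7%, 90% and 87.9% in WT and 55.2%, 87.1% and 74.5% in W796A. They held 25%, 3.70% and 7.32% in W465A, 12.2%, 4.17% and 5% in W464A/W465A and 8.33%, 7.69% and 17.2% in the triple mutant. W465A/W796A held 69.4%, 47.8% and 50%. All 3 low groups lie well under the others with no overlap. The rule for naming Dnmt3l required this for W464A/W465A and the triple mutant against WT. The differences from WT were -70.8, -78.0 and -75 points (adjusted p = 3.7e-05, 8.34e-06 and 9.69e-06), and that of the triple mutant from W465A/W796A was -46.3 points (adjusted p = 0.00265).

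In the triple mutant, Lcn2, a secreted binder of iron siderophores, held 10%, 9.38% and 10% against 87%, 89.4% and 95.6% in WT (-79.8 points, adjusted p = 2.62e-06). A later start of Jakmip1 fell by 74.8 points, and 4930430A15Rik, Ric8a and Dnmt3l, already named, by 78.9, 75.4 and 75 points.

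At some promoters the W465A/W796A libraries lay well below those of WT. Prl2c3, a placental hormone of the prolactin family, held 59.5%, 75.8% and 86% in WT and 25.4%, 8.11% and 14% in W465A/W796A (-57.7 points, adjusted p = 0.00877). Its W465A libraries held 10%, 11.4% and 13.5%, which overlap those of W465A/W796A (5.89 points apart, adjusted p = 0.51). Ifna7, a type I interferon, held 37.5%, 77.3% and 90.5% in WT and 23.8%, 18.2% and 27.3% in W465A/W796A (-51.1 points, adjusted p = 0.0138). Hfe, the iron regulator mutated in hemochromatosis, held 79.2%, 80% and 68.6% against 28.9%, 26.7% and 17.4% (-51.0 points, adjusted p = 0.0149), and its W465A libraries held 25.9%, 44.4% and 19.2%. Prr9, whose window is printed above, held 56%, 86.3% and 86.7% in WT and 30%, 40% and 36.9% in W465A/W796A (-48.3 points, adjusted p = 0.0145). Ap5s1, a subunit of an endosomal adaptor, fell by 47.0 points. The WT and W465A/W796A libraries of these 5 do not overlap, which the rule for naming them required. Each of the 5 lost its call in 1 or 2 of the fits that leave out a library, and Prr9 also with limma.

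Elsewhere W465A/W796A lay far above W465A. Among the largest gains over W465A were those at Cars, Srpr, Litaf and Gatad1. A later start of Cars, the cysteinyl-tRNA synthetase, held 84.1%, 77.1% and 75% in W465A/W796A, 40%, 21.4% and 16.4% in W465A and 82.9%, 87.1% and 94.4% in WT. The gain over W465A was 54.0 points (adjusted p = 0.0108), and W465A/W796A differed from WT by -7.44 points (adjusted p = 0.418). The W465A/W796A libraries overlap those of WT. Srpr, the signal recognition particle receptor, Litaf and Gatad1, all at later starts, gained 53.2, 52.0 and 50.1 points. These calls too were lost in 2 to 5 of the fits that leave out a library, and that of Litaf also without squeezing.

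The change from W465A to W465A/W796A was also set against the change from WT to W796A. The difference between these changes, called the departure from additivity, is given in percentage points of pooled level, while the model tests it on the logit scale, and the sign can differ between the scales where levels are low. In points it was above 0 at 1386 of the 1530 promoters with a median of 21.0, beside 21.5 over all features. An unadjusted p under 0.05 was found at 442 of the 1530 promoters and at 45542 of all 154974 features. The departure was called higher at 46 promoters (3.01%, background 2.86%) and lower at 0 (background 0.00452%). Leaving out WT replicate 1, W465A replicate 1 or W796A replicate 2 raised it to 206, 151 and 443. Leaving out W796A replicate 1 lowered it to 1, and leaving out any of WT replicate 2, W465A replicates 2 and 3 or W465A/W796A replicates 1 and 3 lowered it to 0. Limma called 0 and edgeR 13, and 0 were called without squeezing or with the replicate block.

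The gene lists group promoters by the tissue that uses the gene, and they were set with earlier results of these data known. Over all features 83.2% were called lower in W465A, 24.6% in W465A/W796A, 84.9% in W464A/W465A and 85.1% in the triple mutant, and over all tested promoters 93%, 29.4%, 94% and 94.6%. The counts of every list are to be read against these shares, and no list was tested against them. Of 17 tested olfactory receptor promoters, which drive the odour receptors of the nose, 17 fell in W465A, 7 in W465A/W796A, and 16 in both W464A/W465A and the triple mutant, with a mean WT level of 73.8% ± 9.89. The median difference in W464A/W465A was -57.2 points beside -50.3 over all features. Olfr71 held 41.1%, 85.9% and 75% in WT and 31.7%, 25% and 31.2% in W465A (-40.9 points, adjusted p = 0.00118). WT replicate 1 was the low one there. All 6 keratin promoters, of the filaments of skin and hair, fell in W465A, W464A/W465A and the triple mutant and 4 of 6 in W465A/W796A. Krt15, a keratin of basal epidermis, held 67.4%, 86.3% and 83.3% in WT, 48.9%, 48.1% and 43% in W465A and 71.2%, 87.3% and 65.2% in W465A/W796A. It was called in W465A (-35.2 points, adjusted p = 0.000802), and its W465A/W796A libraries overlap those of WT.

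Of 9 promoters of liver genes, against the same shares, 8 fell in W465A, 1 in W465A/W796A, and 9 in both W464A/W465A and the triple mutant, from a WT mean of 72% ± 11.3. A later start of C3, the central complement component, held 72.3%, 86.7% and 79.3% in WT, 50.3%, 45% and 36.4% in W465A and 26.3%, 26.4% and 22.2% in W464A/W465A (-38.5 and -57.7 points against WT). Ambp, a plasma protein precursor made in liver, held 66.7%, 85.7% and 76.6% in WT and 40.3%, 61.8% and 42.3% in W465A, with no overlap. Of 9 promoters of blood and immune genes, 9 fell in W465A, W464A/W465A and the triple mutant and 3 in W465A/W796A, from a WT mean of 79.9% ± 6.52. Lck, a kinase of T cells, held 86.5%, 95.1% and 95.7% in WT, 51%, 36.1% and 43.3% in W465A and 70.7%, 61.7% and 58% in W465A/W796A (-49.1 and -30.9 points, adjusted p = 1.94e-05 and 0.0112). The 3 groups are separated without overlap, although no tested promoter kept a call in W465A/W796A against WT without WT replicate 2. Il13, a cytokine of T helper cells, kept more: 65.9%, 49.5% and 47.6% in W465A and 44.6%, 44.2% and 48% in W464A/W465A, against 75.7%, 89% and 81.6% in WT.

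Of 9 promoters of striated muscle genes, again against 83.2% to 85.1% of all features in the 3 low groups and 24.6% in W465A/W796A, 8 fell in W465A, W464A/W465A and the triple mutant and 3 in W465A/W796A. Tnni2, troponin I of fast muscle, held 69.8%, 82.3% and 87.2% in WT and 48.6%, 42.3% and 36.5% in W465A (-37.1 points, adjusted p = 0.000283). The lists of defensins, germ cell genes, crystallins, prolactin-family and vomeronasal genes had 3, 4, 1, 1 and 1 tested promoters, of which 2, 3, 1, 1 and 1 fell in W465A and all fell in W464A/W465A and in the triple mutant. The cornified envelope and pancreas lists had no tested promoter, so nothing is said of them. Izumo1, needed for fusion of sperm and egg, was among the germ cell genes not called in W465A, with 17.1%, 28.1% and 39.4% in WT and 16.2%, 10.8% and 7.50% in W465A (adjusted p = 0.0551).

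The 3 tested promoters of genes that mark pluripotent cells differed widely. Zscan10, a transcription factor of pluripotent cells, has a wholly CpG-poor window at chromosome 17 with 9 measured CpGs and at least 116 reads per library. It held 0%, 0.482% and 0.98% in WT, a mean of 0.487% ± 0.49, and no library of any group exceeded 1.61%. Pou5f1, which encodes Oct4, was measured at a later start only, where WT libraries held 2.17%, 36.4% and 7.61%. The triple mutant held 0% in all 3 libraries there. WT replicate 2 stood above the other 2 WT libraries at that start, and its call in W465A (-15.2 points, adjusted p = 0.0139) was lost in 1 of the fits that leave out a library and with limma. Dnmt3l, described above, was the highly methylated one of the 3.

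The housekeeping list had 2 tested promoters, both at later starts. Eno1, an enzyme of glycolysis, held 47.6%, 54.9% and 34.7% in WT, 8.33%, 0% and 1.39% in W465A and 42.9%, 19% and 54.8% in W465A/W796A. It was called in W465A against WT (-42.8 points, adjusted p = 0.000284) and in W465A/W796A against W465A (36 points, adjusted p = 0.0149), and the groups WT and W465A/W796A overlap. Rpl13a, a ribosomal protein, held 9.62%, 37.4% and 4.26% in WT. In its window 23 of 27 listed CpGs have over 10 CpGs within 250 bp.

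**Figure D5:**
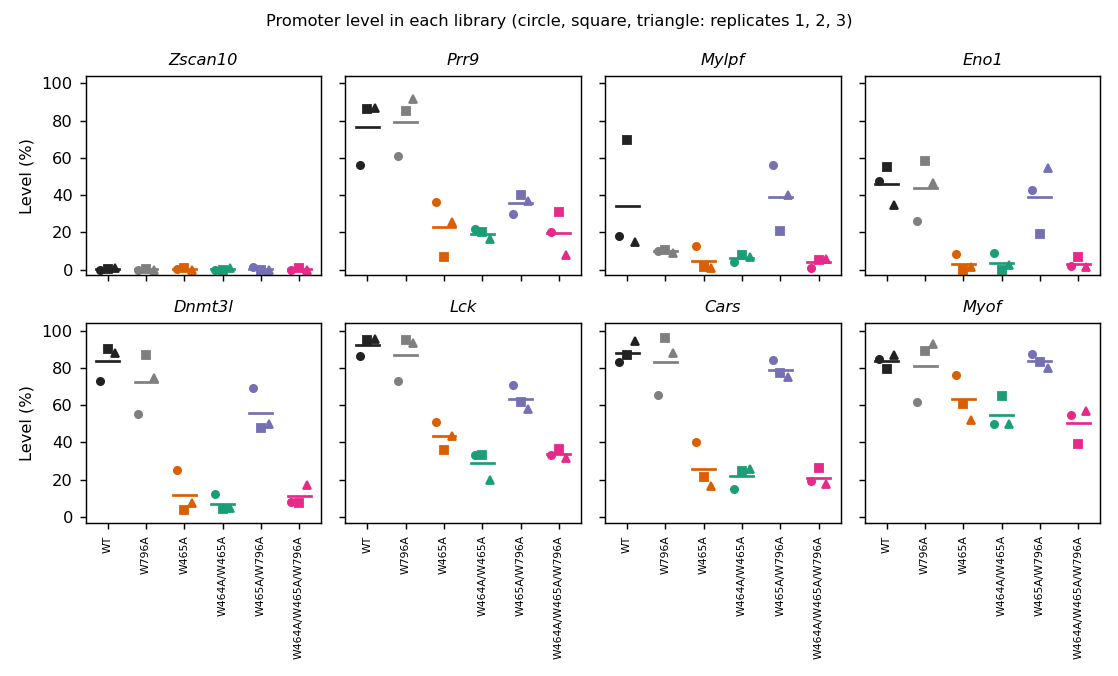
Methylation level (%) of 8 promoters in each of the 18 libraries, by the DNMT1 expressed (markers give the replicate, bars the group mean). Zscan10 reaches at most 1.61%, Cars and Myof libraries of W465A/W796A overlap those of WT, and 1 WT library of Mylpf, at 69.5%, stands above the other 2.

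Mylpf, the regulatory myosin light chain of fast muscle, shows how single libraries differ. At the later start printed above, the WT libraries held 17.9%, 69.5% and 15%, the W796A libraries 10.1%, 10.5% and 9.14%, and the W465A/W796A libraries 56%, 20.7% and 40.3%. WT replicate 2 alone was high in its group, with at least 72 reads in each library. The call in W465A (-39.0 points, adjusted p = 0.00114) was lost in 1 of the fits that leave out a library. That difference uses a pooled WT level of 44.4%, while the mean of the 3 WT libraries was 34.1%. At 12 tested promoters WT replicate 2 was at least 40 points above both other WT libraries, Mylpf and Gpa33 among them. Their mean level was 21.3%, 70.8% and 21.8% in WT replicates 1, 2 and 3. The reverse, a library at least 40 points below both others, was found at 34 promoters for WT replicate 1 and at 46 for W796A replicate 1. What sets these libraries apart was not tested.

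Some promoters kept over 50% in W464A/W465A. The 3 highest were a later start of Myof, which encodes the membrane repair protein myoferlin, Gm5105, and a later start of Nlrc3, a regulator of innate immunity. Myof held 84.8%, 79.2% and 86.7% in WT, 50%, 64.9% and 50% in W464A/W465A and 87.3%, 83.3% and 80% in W465A/W796A. Gm5105 held 76.7%, 86.5% and 80.4% in WT and 44.4%, 50% and 74.1% in W464A/W465A. Nlrc3 held 92.6%, 80.8% and 93.3% in WT and 72.2%, 46.8% and 52.4% in W464A/W465A. All libraries of that mutant lie below all WT libraries at these 3 promoters. They were picked for these values, so no test is given.

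At the low end, 20 of the 607 wholly CpG-poor promoters (3.29%) were under 20% in WT, a set chosen after its values were seen. Besides Zscan10 it holds Glmp, a lysosomal membrane protein, at 0% in all 3 WT libraries, and Tnfaip8l2, a regulator of immunity, at 0.236% ± 0.409. Neurod4, a neuronal transcription factor, held 3.45% ± 2.55 in WT and 6.67%, 31% and 9.09% in W796A. The 20 promoters together held 6.47% ± 3.51 in WT and 1.42% ± 0.343 in the triple mutant. Of the promoters with denser CpGs nearby, Syne4, a nuclear envelope protein, held 2.48%, 4.41% and 5.06% in WT, and a later start of Zmym2 held 0.80%, 3.53% and 0%. Low CpG density as defined here was thus not always accompanied by a high level in these cells. Some of these examples lie near the limit of that definition. The 9 measured CpGs of Zscan10 have a mean of 10 CpGs within 250 bp, the most the rule allows. The windows of Zscan10, Glmp, Tnfaip8l2 and Neurod4 hold 15, 15, 16 and 11 listed CpGs.

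For W796A the 3 promoters with the smallest p were not called. Kcna7, a potassium channel of muscle, held 0%, 20.8% and 3.45% in WT and 46.8%, 46.3% and 42.4% in W796A (35.4 points, adjusted p = 0.212). Gmfg, an actin regulator of blood cells, held 0%, 7.64% and 14.6% in WT and 18.3%, 42.7% and 27.3% in W796A (21.6 points, adjusted p = 0.24). Neither pair of groups overlaps. Eif4g1, a translation initiation factor measured around later starts, held 7.69%, 43.1% and 5.95% in WT and 3%, 7.24% and 0% in W796A (-24.2 points, adjusted p = 0.246), where the groups overlap. None of the 3 windows is wholly CpG-poor. CpGs with over 10 within 250 bp make up 20 of 27 listed CpGs at Kcna7, 12 of 24 at Gmfg and 132 of 144 at Eif4g1.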

How the data were processed

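Methylated and total reads per CpG from 18 eRRBS libraries were used as deposited. The unit is the read count: per the file headers the authors deposited, per CpG and library, the methylated and the total read count, not normalized. Per the submitters' processing notes, reads were handled with cutadapt 1.2.1, Bismark 0.18.1 and Bowtie 1.2 on mm10 (GRCm38). Minimum coverage, duplicate removal and strand merging are not given in the sources used here. All 21867550 listed CpGs lay on CpGs of GRCm38; starts and printed sequence come from GENCODE M21 and GRCm38.

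A level is methylated reads divided by all reads, averaged over CpGs or summed per promoter, for CpGs with at least 5 reads in all 18 libraries. Promoters, other promoter CpGs and 1 kb tiles with at least 3 such CpGs gave 154974 features. They entered 1 quasi-binomial logistic fit of the 6 groups (12 residual degrees of freedom, overdispersion squeezed as in limma). F tests and Benjamini-Hochberg adjustment ran over all features. The model was tested on simulated data. It recovered few of the changes planted in W796A against WT, in W465A/W796A against WT and in the departure from additivity. In the simulation every feature without a planted change was alike between the groups or additive. Far more features were called in the real W465A/W796A against WT and departure from additivity, so recovery in those real comparisons was not measured. Python 3.11.15, numpy 2.4.6, scipy 1.17.1, pandas 2.3.3, R 4.3.3, limma 3.58.1 and edgeR 4.0.16 were used. Alternatives were limma on log2 ratios (pseudocount 0.5), edgeR, no squeezing, only the compared groups, a replicate block, other coverage minimums, differences or windows, and leaving out each library.

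Promoters were named by a written rule: the 5 largest called differences with no overlap of libraries for each mutant against WT and for W465A/W796A against W465A, the 5 largest called departures from additivity, the 3 smallest p where fewer than 3 were called, 2 per gene list with the most reads, and the extremes of level. A gene that the rule names is not reported here. The members and lists were chosen with earlier results of these data known. Same-numbered WT and W796A libraries deviated together (correlations 0.144 to 0.26); the labels give no source for this pairing, and no other pair of groups had all its correlations over 0.1. Reads carry no molecular identifiers, so depth gives counting precision only. The empty-vector control was not analysed here.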

Additional observations from a re-analysis of the deposited data

Results flagged for a closer look

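The change that W796A makes on top of W465A was compared with the change it makes on top of WT. The difference was called at 46 of the 1530 tested promoters (3.01%), beside 2.86% of all features, so the share is at the background. The count was 0 with limma, without squeezing, with the replicate block and without any 1 of 5 libraries. Of these, 4 follow, with the difference of the 2 changes in points and the adjusted p of the quasi-binomial F test with Benjamini-Hochberg adjustment. Fbxo24, an F-box protein measured at a later start, departed by 72.0 points (adjusted p = 0.0318). Its W796A libraries held 40.4%, 87.2% and 69.6%, its WT libraries 94.9%, 82.5% and 87.8%, its W465A libraries 35.9%, 20.8% and 18.5%, and its W465A/W796A libraries 66.7%, 69.2% and 77.8%.

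Gpa33, an intestinal surface antigen, departed by 71.4 points (adjusted p = 0.0369). Its WT libraries held 20.6%, 76.5% and 2.56%, so the WT side of the comparison rests on 1 high library. Cacna1d, a calcium channel subunit, departed by 66.3 points (adjusted p = 0.0429) and Gatad1, a zinc finger protein at a later start, by 65.6 points (adjusted p = 0.0443). The 4 calls were lost with limma, without squeezing and with the replicate block, and each in 6 of the fits that leave out a library. Those of Cacna1d and Gatad1 were also lost with edgeR.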

How the results depend on the processing

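Depth limits single promoters. At a minimum of 10 reads only 201 promoters could be tested, and the counts called were 186 in W465A, 60 in W465A/W796A, 189 in W464A/W465A and 188 in the triple mutant against WT, 61 in W465A/W796A against W465A, 156 in the triple mutant against W465A/W796A and 15 for the departure from additivity. Fewer promoters were tested there, and the called share for the departure was 7.46% against 3.01%. The called shares over all features were not counted at this minimum. Whether 7.46% differs from the background there is therefore not known. At 20 reads, with 88 CpGs left, the mean level differed by 3.66 points between the triple mutant and W464A/W465A and by -13.3 points between W464A/W465A and W465A. In wholly CpG-poor windows the triple mutant lay -30.3 points from W465A/W796A. W465A/W796A against WT gave 250 promoters without squeezing, 71 with limma and 103 with edgeR. W465A/W796A against W465A gave 669 with only the compared groups, 220 without squeezing and 241 with limma. With only the compared groups, the triple mutant against W464A/W465A and W464A/W465A against W465A each gave 3. The departure from additivity gave 0 with only the compared groups, without squeezing or with limma, and 13 with edgeR. The cause of these changes was not tested.

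With the replicate number as a block, W465A/W796A against WT gave 232 promoters and the departure from additivity 0; the block moved no other count of calls by over 1.5 times. Within WT and W796A alone, the only pair of groups in which every same-numbered correlation was over 0.1, the block gave 0. Those of W465A and W465A/W796A were above 0 but lower (0.0295 to 0.119).

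Leaving out 1 library at a time gave these ranges of called promoters: 0 to 3 for W796A, 1129 to 1434 for W465A, 1299 to 1456 for W464A/W465A, 0 to 791 for W465A/W796A and 1316 to 1454 for the triple mutant against WT; 0 to 540 for W465A/W796A against W465A, 666 to 1033 for the triple mutant against W465A/W796A and 0 to 443 for the departure from additivity. The differences in mean level ranged from -3.70 to 8.12 points for W796A, -42.3 to -33.9 for W465A, -49.4 to -41.0 for W464A/W465A, -23.3 to -14.9 for W465A/W796A and -49.7 to -41.3 for the triple mutant. They ranged from 16.9 to 22.3 for W465A/W796A against W465A, -1.60 to 1.27 for the triple mutant against W464A/W465A, -8.79 to -3.77 for W464A/W465A against W465A and -27.7 to -24.2 for the triple mutant against W465A/W796A. None of the differences in mean level without overlap of libraries, and no call of a named promoter, changed sign in an alternative run. For the other tested promoters only the counts of calls were compared between runs.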

Other observations

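Single CpGs without methylation occurred inside methylated promoters. Of 4704 measured CpGs in the 1185 tested promoters with at least 50% in WT, 12 (0.255%) had no methylated read in any of the 18 libraries. The promoter level includes such a CpG, so some promoters that hold one miss the limit. Eno1, with its unmethylated CpG described above, had a pooled WT level of 45.7% and is not counted. At Smad3 such a CpG had 513 reads in all, while the other 6 measured CpGs of the promoter held 83.9% in WT. At B4galt4 it had 363 reads beside 84.2%, and at Gm17304 300 reads beside 90%. Whether the reference CpG is present in these cells was not tested.

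Libraries of 1 group lay far apart at some promoters. A range over 50 points was found at 47 of 1530 promoters in WT (3.07%, against 2.13% of all features) and at 51 in W796A (3.33% against 2.95%). The share was below that of all features in W464A/W465A (0.131% against 0.215%) and in W465A/W796A (0.784% against 0.903%). The 12 promoters at which WT replicate 2 stood at least 40 points above both other WT libraries were Capzb, Carmil2, Eps8, Gpa33, Lgals3, Lrrc2, Mylpf, Pmvk, Rabgef1, Tmem156, Tmem38b and Zfp819, a set chosen after its values were seen. Their W796A libraries held 20.6%, 40.3% and 32.5% on average and their W465A/W796A libraries 45.2%, 26.1% and 33.4%. The 46 promoters at which W796A replicate 1 stood at least 40 points below both others held 41.4%, 91.2% and 88.8% in W796A and 67.8%, 83.4% and 81.4% in WT.

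Among the 607 wholly CpG-poor promoters, the 89 with TATAAA in the 250 bases before the start held 74.2% ± 7.43 in WT and the 518 without it 69.1% ± 8.63 (SD, n = 3 libraries). The 55 with GGGCGG held 55.4% ± 9.3 and the 552 without it 71.3% ± 8.39. These are descriptions without a test.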
